A study of Mus musculus with 24 samples.

Results

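M[8] is a group of 62 transcripts, out of the 63758 listed in the count table, that the study placed together in its co-expression module table. The members were chosen by the study in 2 steps on the same 24 samples described here: a test over time (DESeq2 likelihood ratio test) selected the transcripts, and a clustering of their correlations (WGCNA) grouped them. Differences between time points and relations between samples are therefore given for M[8] as descriptions, and no p-value supports them. Each member is 1 UCSC transcript, so a value is the level of that transcript and not of the whole gene.

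The samples were left ventricles of male C57BL/6J mice of 8 to 12 weeks, 8 mice at each of 3 time points, with 1 library per mouse. All mice had pentobarbital anaesthesia with buprenorphine, a left thoracotomy and a suture looped round the descending branch of the left coronary artery. This loop was never tied, so no group was made ischemic by ligation and none was left without surgery. The groups differ in how long the mice were followed. In the 0 min group the loop was taken out immediately, in the 45 min group it stayed for that time, and the 24 h group had the same 45 min of surgery and then recovered with a closed chest until the next day.

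The myocardium holds cardiomyocytes, which make most of its RNA, together with fibroblasts, endothelial cells, mural cells of the vessels and resident leukocytes. After injury to the chest and heart, leukocytes enter the tissue, fibroblasts lay down and remodel matrix, and stressed cells adjust their handling of iron, lipids and peroxides. The 62 members, sorted by known function, held 7 secreted or matrix proteins, 10 proteins of the cytoskeleton and cell adhesion, 10 of membrane traffic, 7 receptors and signalling enzymes, 8 nuclear proteins, 4 RNA-binding proteins and 7 of metabolism and the endoplasmic reticulum. The other 9 are transcripts to which no role was assigned. In RNA of whole tissue, more or fewer cells of a type and more or less RNA per cell cannot be told apart.

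Promoters of 4 members are shown because they stand for the ends of the module's behaviour. Tcf23 and Spock2 had the 2 largest differences at 24 h, Serinc3 was one of the 2 members with the highest mean CPM (the count of a transcript scaled to the same library size in every sample, not to its length), and Arf3 followed the number of detected transcripts most closely. Arf3 was picked after its values were seen. Each sequence runs 5′ to 3′ along the strand of the gene in GRCm38.p6, from 250 bases before the RefSeq start to 50 after it, and capitals mark GC boxes, CCAAT boxes, TATA boxes and CArG boxes, searched on both strands.

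Tcf23, chr5:30968427-30968726, plus strand: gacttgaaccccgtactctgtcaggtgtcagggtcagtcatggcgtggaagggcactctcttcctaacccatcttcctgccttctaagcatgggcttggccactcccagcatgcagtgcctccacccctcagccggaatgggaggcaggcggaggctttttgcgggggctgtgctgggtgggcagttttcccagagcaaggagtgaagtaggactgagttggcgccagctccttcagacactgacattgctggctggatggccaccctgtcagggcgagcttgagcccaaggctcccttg
Spock2, chr10:60106007-60106306, plus strand: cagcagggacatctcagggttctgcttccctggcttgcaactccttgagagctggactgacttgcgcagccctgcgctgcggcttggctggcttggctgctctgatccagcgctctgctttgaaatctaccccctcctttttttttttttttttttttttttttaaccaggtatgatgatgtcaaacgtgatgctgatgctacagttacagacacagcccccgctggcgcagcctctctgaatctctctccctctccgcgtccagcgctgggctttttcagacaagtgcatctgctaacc
Serinc3, chr2:163645094-163645393, minus strand: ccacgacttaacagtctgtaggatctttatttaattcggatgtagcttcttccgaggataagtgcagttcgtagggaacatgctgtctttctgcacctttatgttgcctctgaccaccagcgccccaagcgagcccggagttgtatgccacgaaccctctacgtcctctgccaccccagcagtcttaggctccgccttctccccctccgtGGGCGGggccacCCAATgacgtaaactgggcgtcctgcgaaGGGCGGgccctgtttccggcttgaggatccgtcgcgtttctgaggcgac
Arf3, chr15:98762943-98763242, minus strand: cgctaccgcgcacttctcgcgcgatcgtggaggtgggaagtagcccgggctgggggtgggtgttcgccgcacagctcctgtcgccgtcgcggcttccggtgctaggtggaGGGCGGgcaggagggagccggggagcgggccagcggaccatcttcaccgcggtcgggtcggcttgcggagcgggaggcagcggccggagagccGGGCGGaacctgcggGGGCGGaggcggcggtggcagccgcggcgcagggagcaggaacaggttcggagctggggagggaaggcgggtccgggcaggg

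The windows of Tcf23 and Spock2 held none of the 4 motifs, that of Serinc3 held 2 GC boxes and 1 CCAAT box, and this window of Arf3, 1 of 2 for that gene, held 3 GC boxes. Their GC content was 60.3% for Tcf23, 52.3% for Spock2, 57.7% for Serinc3 and 75.3% for Arf3. The ratio of observed to expected CpG dinucleotides was 0.257 for Tcf23, 0.498 for Spock2, 0.85 for Serinc3 and 1 for Arf3. RefSeq promoters were at hand for 43 of the 62 members, in 49 windows. A GC box (the letters GGGCGG) was found in 57.1% of these windows, in 35.7% of the 32851 windows of all genes and in 54.9% of the 903 windows of the other transcripts in the study's list. The share in M[8] lay nearer to that of the other listed genes. The remaining motifs searched were at 32.7% of the M[8] windows for CCAAT, 10.2% for TATAAA, 12.2% for the TEAD motif CATTCC, 8.16% for the E-box CACGTG, 4.08% for the AP-1 site TGACTCA, 2.04% for the CRE TGACGTCA and 2.04% for the CArG box. Among all windows they were at 37.4%, 13.6%, 14.7%, 7.15%, 5.2%, 1.79% and 1.63%. These matches are letters in a window, and binding was not measured.

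The libraries held between 9887957 and 14091629 counts, and between 12972 and 18865 transcripts with at least 1 count. Medians of the number of transcripts detected were 16232 (0 min), 17321 (45 min) and 18038 (24 h). At 45 min, replicates 6, 7 and 8 stood apart with 13743, 14353 and 12972, and at 24 h replicate 4 was lowest with 15753. All 62 members were detected in each of the 8 samples at 24 h, against 59 to 62 per sample at 0 min and 56 to 62 at 45 min. The filter on low counts kept 8940 transcripts and 59 of the 62 members. Il4ra, Pmaip1 and BC051062 had too few counts to be tested. A change was called at an adjusted p under 0.05 in edgeR's quasi-likelihood test.

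All 59 tested members had a higher fitted level at 24 h than at 0 min, by a log2 fold change between 0.14 and 2.21 with a median of 0.53. The median over all tested transcripts was 0.0033. The increase was over 1 on the log2 scale in 13 members and under 0.5 in 27. In the model with time alone, 25 of the 59 were called higher at 24 h and 0 lower, where 4.44% of all tested transcripts were called higher. The members were selected by a test over time on these samples, so this count and all later calls between time points are descriptions. Nothing about the members is inferred from such calls. The 24 h samples were all higher than the highest 0 min sample in 6 of the 59 (Spock2, Fhl1, Dab2, Nek7, Tcf23 and Aox1), and the same held for 0.996% of all tested transcripts.

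At 45 min the members lay on both sides of the 0 min level. The fitted difference from 0 min was above 0 in 24 of the 59 members, its median was -0.07 on the log2 scale, and edgeR called 0 of them in either direction, against 0.727% of all tested transcripts. At an unadjusted p under 0.05, 7 members were lower and 0 higher at 45 min. The share of all tested transcripts at that unadjusted threshold was not counted, so these 7 have no baseline. In the model with 1 surrogate variable 1 member was called, and DESeq2 and limma-voom called 0. Between 24 h and 45 min, 42 of the 59 were called higher at 24 h, against 4.59% of all tested transcripts, with a median log2 fold change of 0.62. Without 45 min replicates 6 to 8 that count was 11, and the share of all tested transcripts was not counted in that fit.

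**Figure D1:**
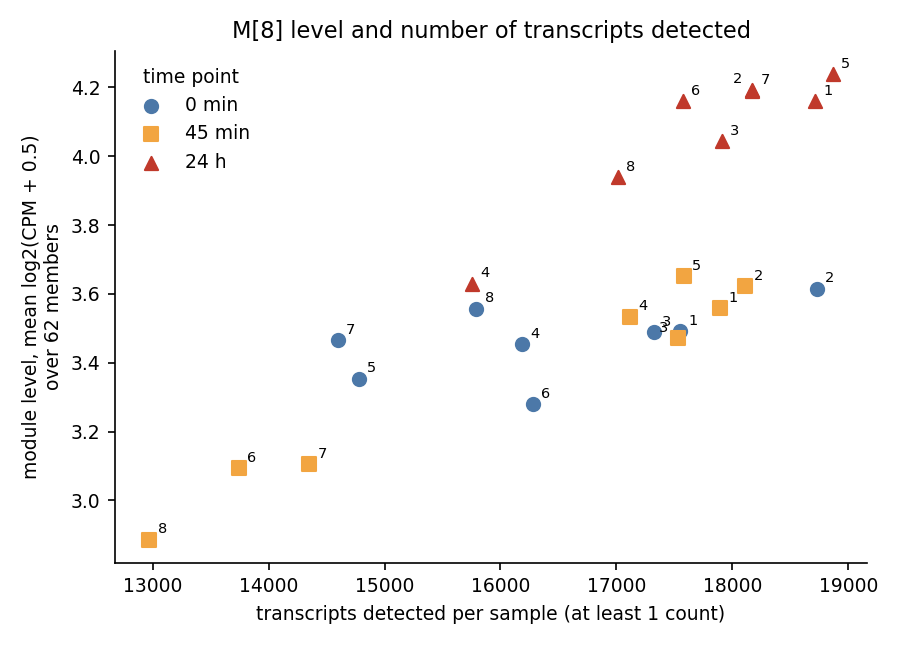
The mean log2(CPM + 0.5) of the 62 members (y axis) is plotted against the number of transcripts with at least 1 count (x axis) for each of the 24 samples, with the replicate number beside each point. In it 7 of the 24 h samples lie above all others, the 24 h sample with the fewest transcripts (replicate 4, 15753) lies near the 0 min samples at 3.63, and the 45 min samples 6, 7 and 8 lie lowest.

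The level of the module was summarised in each sample as the mean log2(CPM + 0.5) over the 62 members. The mean ± SD of the 8 samples was 3.46 ± 0.11 for 0 min, 3.37 ± 0.29 for 45 min and 4.07 ± 0.20 for 24 h. The samples at 0 min ran from 3.28 to 3.615 and those at 24 h from 3.63 to 4.24, so the ranges lay next to each other without overlap. The level followed the number of transcripts detected across the 24 samples, with Pearson r = 0.785 and Spearman rho = 0.815. Without the 2 samples farthest from the median number detected, 45 min replicates 8 and 6, r was 0.685 and rho 0.759. These samples share the time effect, and the number detected and the members come from the same libraries, so the values are descriptions.

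Within time points the relation was looser at 0 min (r = 0.526, rho = 0.476, n = 8) than at 24 h (r = 0.935, rho = 0.898, n = 8). Without 24 h replicate 4 the value at 24 h was r = 0.799 and rho = 0.847. At 45 min the samples fell in 2 clusters, replicates 6 to 8 and the rest, so no single correlation is given. The lowest 45 min value of a member was in replicate 6, 7 or 8 in 59 of 62 members, and these held the 3 lowest values in 24 of them. The lowest 24 h value was in replicate 4 in 36 of 62. The same shares over all tested transcripts were not counted, so these counts are not set apart as a trait of M[8].

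The difference in module level between 24 h and 0 min was 0.61 ± 0.11 (SE) in a model with time alone. With the number of transcripts detected in the model it was 0.45 ± 0.06 (SE), and the level was higher by 0.117 ± 0.0154 (SE) per 1000 transcripts detected at a given time point. That slope is shared by the time points in the model, and fitted apart it was 0.0396 at 0 min, 0.136 at 45 min (0.0821 without replicates 6 to 8) and 0.188 at 24 h (0.13 without replicate 4). The difference between these slopes was not tested. The mean number detected was 1368 higher at 24 h than at 0 min. When only the samples whose number detected lay in the range common to both time points were used (15753 to 18725, with 6 samples at 0 min and 7 at 24 h), the difference was 0.565 without and 0.487 with the number detected. Pairs of samples with nearly the same number detected differed to unequal degrees. The module level was 4.161 in 24 h replicate 1 (18715 detected) and 3.615 in 0 min replicate 2 (18725), 4.16 in 24 h replicate 6 (17575) and 3.491 in 0 min replicate 1 (17545), and 3.63 in 24 h replicate 4 (15753) and 3.557 in 0 min replicate 8 (15791). Without 45 min replicates 6 to 8 the difference with the number detected was 0.485, and without 24 h replicate 4 as well it was 0.58, with a slope of 0.05 per 1000.

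**Figure D2:**
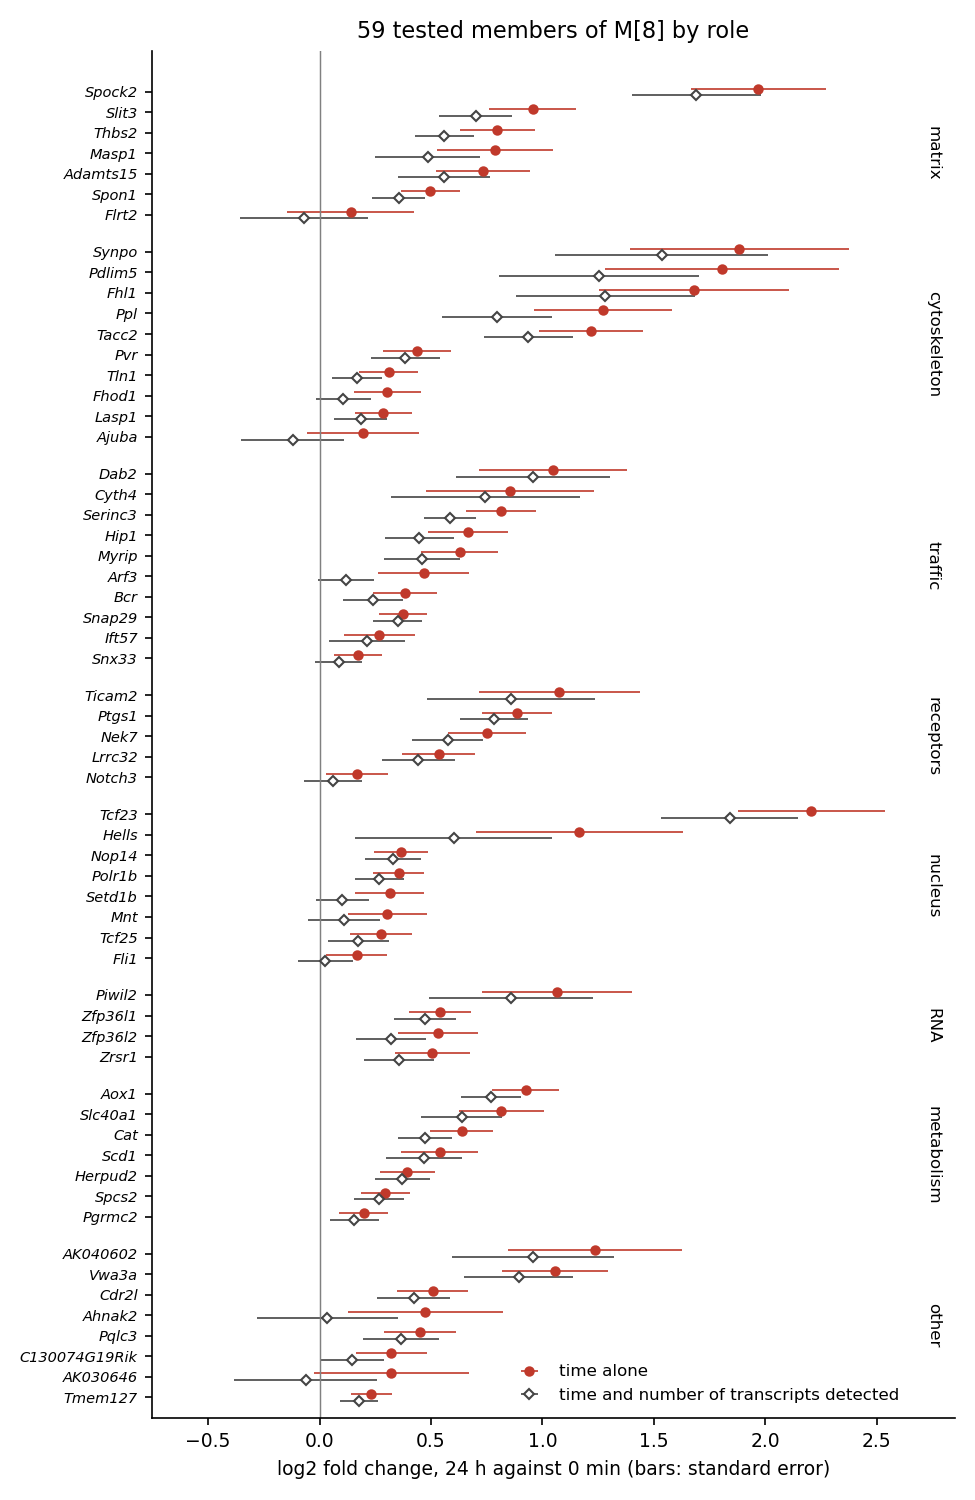
The log2 fold change between 24 h and 0 min (x axis, bars are standard errors) is drawn for the 59 tested members, grouped by role, from the model with time alone (filled circles) and from the model that also holds the number of transcripts detected (open diamonds). The open diamond lies to the left of the circle in all 59, and 56 of the diamonds remain above 0. That side follows from slopes above 0 and a higher mean number detected at 24 h.

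Member by member, adding the number of transcripts detected made the 24 h difference smaller in all 59, by a median of 0.17 on the log2 scale (-0.168), and by more than 0.1 in 43. The mean number detected was higher at 24 h, so this direction restates the slopes above 0 given below and is no separate result. The median log2 fold change was then 0.42, the range ran from -0.12 (Ajuba) to 1.84 (Tcf23), and 56 of the 59 were above 0. In this model 18 of the 59 were called higher and 0 lower, where 6.47% of all tested transcripts were called higher. At an unadjusted p under 0.05, 0 were lower as well, and the share of all tested transcripts at that threshold was not counted. All 18 were among the 25 called with time alone. The 7 called with time alone and not in this model were Adamts15, Pdlim5, Hip1, Myrip, Lrrc32, Herpud2 and Cdr2l.

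The slope with the number detected, at a given time point, was above 0 in all 59 members. It was called rising in 32 of them and falling in 0, where 28.9% of all tested transcripts were called rising. That count changed with the libraries used. It was 6 without 45 min replicates 6 to 8, 0 when 24 h replicate 4 was left out as well, and 1 in a fit of the 0 min and 24 h samples alone. In the same order, the slope of the module level per 1000 transcripts was 0.0895 ± 0.0241 (SE), 0.0542 ± 0.0206 (SE) and 0.0897 ± 0.0268 (SE). The share of all tested transcripts was not counted in any of the smaller fits, and why the count fell was not tested. With single libraries left out it was 18 to 28, lowest without 45 min replicate 8, and it was 19 without 24 h replicate 4 and 21 without 45 min replicate 2 or 7. The number of members called higher at 24 h with the number detected in the model was 24 without 45 min replicates 6 to 8, and 20 without 24 h replicate 4 as well. With both terms fitted to all samples, 13 members were called for time and for the slope, 5 for time alone (Ptgs1, Synpo, Zfp36l1, Snap29 and Vwa3a), 19 for the slope alone and 22 for neither.

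**Figure D3:**
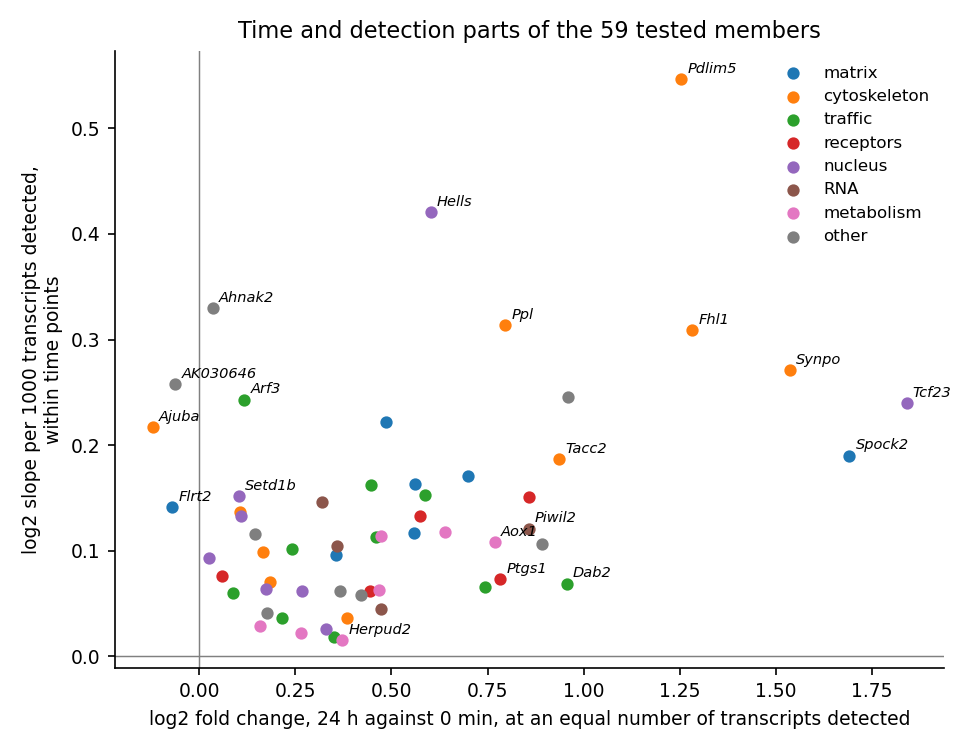
Each point is 1 of the 59 tested members, placed by its log2 fold change at 24 h against 0 min at an equal number of transcripts detected (x axis) and by its log2 slope per 1000 transcripts detected (y axis), with colour for role. Tcf23 and Spock2 lie far right with slopes of 0.24 and 0.19, Arf3 and Ahnak2 lie near 0 on the x axis with slopes of 0.24 and 0.33, and Herpud2 has a slope of 0.02.

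The 59 members moved together across the samples, with a mean pairwise correlation of 0.593 on the log2 CPM scale. The clustering that made the module used these correlations. Once the time point means were taken out the mean was 0.333, and once the number detected was also taken out it was 0.129. Other modules of the study's list were also higher at 24 h. The slope with the number detected was called rising in 54.2% of the tested members of M[8]. For M[9] the share was 71.2% of 125 members, for M[7] 11.7% of 103, for M[5] 0.99% of 101 and for M[6] 0% of 56, while 22 members of M[5], 35 of M[6] and 0 of M[8] were called falling, against 27.8% of all tested transcripts. These shares are set side by side and were not tested. Median log2 fold changes at 24 h were 0.53 for M[8], 0.61 for M[9], 1.36 for M[7], 0.94 for M[5] and 1.15 for M[6].

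Of all tested transcripts, 4.44% were called higher at 24 h and 6.47% with the number detected, which stand beside the counts of each role. The 7 matrix and secreted members held 5 that were called higher at 24 h, 4 of them also at an equal number detected. Spock2, a secreted proteoglycan of the extracellular matrix, had the largest difference of the group. Its CPM was 2.45 at the lowest, 5.15 at the median and 6.42 at the highest at 0 min, 3.96, 5.00 and 11.5 at 45 min, and 6.81, 19.3 and 33.1 at 24 h. No 24 h sample overlapped those of 0 min, and replicates 3 and 4 at 24 h were below the highest 45 min sample. The log2 fold change was 1.97 ± 0.30 (SE) with time alone and 1.69 ± 0.29 (SE) with the number detected. Slit3, a secreted guidance ligand of Robo receptors, ran from 10.4 through 13.1 to 18.7 CPM at 0 min, from 7.94 through 14.3 to 18.4 at 45 min and from 17.3 through 26.4 to 36.0 at 24 h. Only replicate 4 at 24 h lay within the range of the 0 min samples, and the log2 fold change was 0.96 ± 0.19 (SE), or 0.70 ± 0.16 (SE) with the number detected.

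Thbs2, a matricellular glycoprotein, had a log2 fold change of 0.80 ± 0.17 (SE), Adamts15, a metalloprotease that cleaves proteoglycans, 0.73 ± 0.21 (SE), and Spon1, another secreted matrix protein, 0.50 ± 0.13 (SE). Masp1, a serine protease of the lectin pathway of complement, had 0.79 ± 0.26 (SE) and was not called. Its other transcript in the table, placed in M[7], had 0.80 ± 0.155 (SE). Flrt2, a membrane protein of guidance and adhesion, had the smallest difference of the group. Its CPM was 2.56, 4.73 and 11.3 at 0 min, 1.04, 2.63 and 5.06 at 45 min and 3.98, 5.89 and 8.82 at 24 h (lowest, median and highest), and all 8 samples at 24 h lay below the highest at 0 min. It had a log2 fold change of 0.14 ± 0.29 (SE), and -0.07 ± 0.29 (SE) with the number detected.

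**Figure D4:**
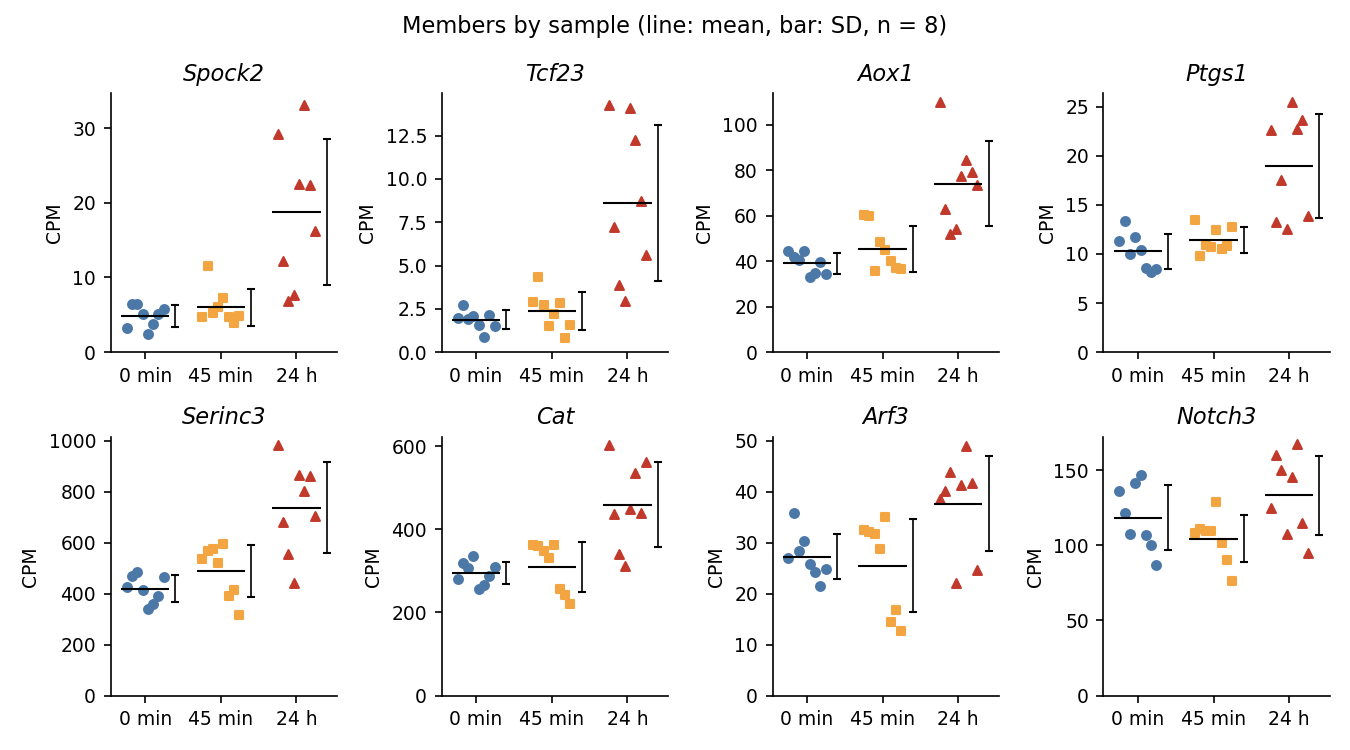
CPM (y axis, from 0) in each sample is shown by time point for Spock2, Tcf23, Aox1, Ptgs1, Serinc3, Cat, Arf3 and Notch3, with the mean as a line and the SD as a bar (n = 8 mice per time point). Spock2, Tcf23 and Aox1 show no overlap between 24 h and 0 min, Arf3 is split at 45 min by its 3 lowest samples, and Notch3 overlaps at all time points.

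Of the 10 members of the cytoskeleton and cell adhesion, 5 were called higher at 24 h and 4 of those also with the number detected in the model. With the number detected, 7 of the 10 were called rising, beside 54.2% of the tested members of M[8] and 28.9% of all tested transcripts. Synpo (synaptopodin, an actin-associated protein) had CPM of 0, 0.508 and 1.41 at 0 min, 0, 0.973 and 1.36 at 45 min and 0.951, 1.89 and 3.44 at 24 h. On the log2 scale the 24 h difference was 1.88 ± 0.49 (SE), and 1.54 ± 0.48 (SE) with the number detected. Pdlim5, a PDZ and LIM domain protein of the Z-disc, had CPM of 0.0867, 0.399 and 1.33 at 0 min, 0, 0.37 and 1.06 at 45 min and 0.858, 1.64 and 2.61 at 24 h. In both transcripts, 0 min replicate 2, which had the most transcripts detected of its time point (18725), overlapped the 24 h samples, and the other 7 samples at 0 min lay below all of them. Pdlim5 was among the 3 members that moved most with the number detected, from 1.81 ± 0.53 (SE) to 1.25 ± 0.45 (SE), with the steepest slope of all 59 at 0.55 per 1000 transcripts. It was called in 16 of 24 fits that each left out 1 sample.

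Fhl1, a LIM-only protein of the sarcomere, had a log2 fold change of 1.68 ± 0.43 (SE), and its 24 h samples (0.86 to 2.12 CPM) did not overlap those of 0 min (0 to 0.734). The counted transcripts of Fhl1, Pdlim5 and Synpo were scarce, with means of 10.4, 11 and 14 counts per sample, and do not stand for the output of these muscle genes as a whole. Ppl, periplakin, a plakin that binds intermediate filaments, was also moved most by the number detected, from 1.27 ± 0.31 (SE) to 0.80 ± 0.25 (SE). Its CPM was 3.20, 4.51 and 8.21 at 0 min, 1.94, 4.98 and 11.4 at 45 min and 3.98, 12.8 and 19.5 at 24 h. Replicates 3 and 4 at 24 h fell within the range of the 0 min samples. Tacc2, a coiled-coil protein of centrosomes and microtubules, had 1.22 ± 0.23 (SE), and 0.94 ± 0.20 (SE) with the number detected.

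The remaining 5 of the group differed by less than 0.5. Tln1, talin, which couples integrins to actin, was one of the 2 members with the highest mean CPM. Its values were 312, 359 and 394 at 0 min, 248, 347 and 396 at 45 min and 318, 443 and 577 at 24 h, and replicates 1, 4 and 8 at 24 h fell inside the 0 min range. Its difference on the log2 scale was 0.31 ± 0.13 (SE), and 0.17 ± 0.11 (SE) with the number detected. Ajuba, a LIM protein of cell junctions that takes part in Hippo signalling, had CPM of 1.66, 3.14 and 4.76 at 0 min, 0.783, 1.74 and 3.19 at 45 min and 1.64, 3.63 and 5.62 at 24 h. It overlapped widely, and its difference went from 0.19 ± 0.25 (SE) to -0.12 ± 0.23 (SE) with the number detected. Pvr, a nectin-like adhesion molecule, had 0.44 ± 0.15 (SE), Fhod1, a formin, 0.30 ± 0.15 (SE), and Lasp1, which binds actin, 0.29 ± 0.13 (SE).

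Membrane traffic was represented by 10 members, of which 4 were called higher at 24 h and 2, Serinc3 and Snap29, also with the number detected. Serinc3, a multipass membrane protein, had CPM of 342, 421 and 485 at 0 min, 317, 528 and 596 at 45 min and 441, 755 and 982 at 24 h. Only replicate 4 at 24 h was within the 0 min range, and the log2 fold change was 0.81 ± 0.16 (SE), or 0.59 ± 0.12 (SE) with the number detected. Snap29, a SNARE protein of membrane fusion, was among the 3 members that moved least, from 0.38 ± 0.11 (SE) to 0.35 ± 0.11 (SE). Its CPM was 28.6, 34.3 and 44.9 at 0 min, 30.7, 39.6 and 41.8 at 45 min and 39.4, 43.9 and 52.9 at 24 h. Replicate 8 was the only 0 min sample that overlapped those of 24 h. With time alone Snap29 was called in 14 of 24 fits that each left out 1 sample, and it was not called without a filter or in the shared range of number detected.

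Dab2, a clathrin adaptor, had the largest difference of the traffic group. Its CPM was 0.434, 1.26 and 1.66 at 0 min, 0.112, 0.973 and 2.47 at 45 min and 2.1, 2.45 and 2.81 at 24 h, with no overlap between 24 h and 0 min. The log2 fold change was 1.05 ± 0.33 (SE), and 0.96 ± 0.35 (SE) with the number detected, and the member was called in neither model. With time alone Dab2 was called in 10 of 15 alternative settings and in 4 of 24 fits that each left out 1 sample. Cyth4, an exchange factor for ARF proteins in blood cells, had CPM of 0.642, 1.02 and 2.84 at 0 min, 0.208, 0.467 and 1.45 at 45 min and 0.91, 2.05 and 3.88 at 24 h. At 24 h 6 samples lay at or below the highest 0 min sample, and the log2 fold change was 0.85 ± 0.38 (SE). Snx33, a sorting nexin, had CPM of 15.3, 18.1 and 20.6 at 0 min, 11.4, 15.1 and 18.3 at 45 min and 17.4, 19.5 and 24.1 at 24 h, with a log2 fold change of 0.17 ± 0.11 (SE).

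Arf3, an ADP-ribosylation factor of the Golgi, was the member that followed the number of transcripts detected most closely, with r = 0.899 over the 24 samples. Its CPM was 21.5, 26.5 and 35.9 at 0 min, 12.8, 30.3 and 35 at 45 min and 22.2, 40.7 and 49.0 at 24 h. At 45 min replicates 6, 7 and 8 lay below all 0 min samples and the other 5 among them, and at 24 h replicates 4 and 8 fell within the 0 min range. The 24 h difference went from 0.47 ± 0.20 (SE) to 0.12 ± 0.13 (SE) with the number detected. Hip1, an endocytic protein that binds clathrin and actin, had 0.67 ± 0.18 (SE), Myrip, which links Rab27 vesicles to myosin, 0.63 ± 0.17 (SE), Bcr, a GTPase-activating protein, 0.38 ± 0.14 (SE), and Ift57, of intraflagellar transport, 0.27 ± 0.16 (SE).

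The receptors and signalling enzymes held 7 members, of which 5 could be tested, 3 were called higher at 24 h and 2, Ptgs1 and Nek7, also with the number detected. Ptgs1, cyclooxygenase-1 of prostanoid synthesis, had CPM of 8.20, 10.2 and 13.4 at 0 min, 9.82, 10.9 and 13.5 at 45 min and 12.5, 20.1 and 25.5 at 24 h. Replicates 2 and 4 at 24 h overlapped the highest 0 min sample. Its log2 fold change was 0.89 ± 0.16 (SE), and 0.78 ± 0.15 (SE) with the number detected. Ticam2, an adaptor of Toll-like receptor 4 signalling, had CPM of 0.26, 0.803 and 1.96 at 0 min, 0.104, 0.676 and 1.64 at 45 min and 1.01, 1.76 and 3.04 at 24 h. At 24 h 6 samples lay at or below the highest 0 min sample, and its log2 fold change was 1.08 ± 0.36 (SE).

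Notch3, a Notch receptor of vascular mural cells, had the smallest difference of this group. Its CPM was 86.8, 115 and 147 at 0 min, 76.4, 109 and 128 at 45 min and 94.5, 135 and 167 at 24 h, with overlap at every time point. It had a log2 fold change of 0.17 ± 0.14 (SE), and 0.06 ± 0.13 (SE) with the number detected. Nek7, a kinase of mitosis and of the NLRP3 inflammasome, had 0.75 ± 0.18 (SE) and no overlap between 24 h (4.41 to 9.10 CPM) and 0 min (2.64 to 4.25). Lrrc32, which holds latent TGF-beta at the membrane, was the only member with every 24 h sample (32.6 to 65.1 CPM) above every 45 min sample (15.3 to 31.8). The share of all tested transcripts with that pattern was not counted. The 24 h difference of Lrrc32 from 0 min was 0.53 ± 0.16 (SE).

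Il4ra, a receptor chain for IL-4 and IL-13, and Pmaip1, the pro-apoptotic BH3-only protein Noxa, stayed below the count filter. Il4ra had 0 to 4 counts per sample at 0 min, 0 to 9 at 45 min and 5 to 21 at 24 h, with the highest CPM in 24 h replicate 4 at 1.81. Pmaip1 had 0 to 6 counts at 0 min, 0 to 19 at 45 min and 5 to 25 at 24 h. Unlike most of the module, Il4ra was thus highest in the 24 h sample with the fewest transcripts detected.

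The nuclear group of 8 held 1 member that was called higher at 24 h, in both models. That was Tcf23, a basic helix-loop-helix transcription factor, which had the largest difference of all 59 members. Its CPM was 0.867, 1.96 and 2.74 at 0 min, 0.834, 2.46 and 4.34 at 45 min and 2.94, 7.97 and 14.3 at 24 h, so that no 24 h sample overlapped 0 min and replicates 3 and 4 overlapped 45 min. The log2 fold change was 2.21 ± 0.33 (SE), and 1.84 ± 0.31 (SE) with the number detected. Hells, a chromatin remodelling helicase of the SNF2 family, had CPM of 0.183, 0.809 and 1.58 at 0 min, 0, 0.512 and 1.09 at 45 min and 0.432, 1.61 and 3.44 at 24 h. Replicates 1, 4, 6 and 8 at 24 h lay within the 0 min range. Its difference went from 1.17 ± 0.46 (SE) to 0.60 ± 0.44 (SE) with the number detected, the largest move of all 59.

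Fli1, an ETS transcription factor of endothelial and blood cells, had CPM of 31.1, 35.7 and 47.4 at 0 min, 20.3, 32.2 and 39.2 at 45 min and 34.6, 43.3 and 44.6 at 24 h, all 8 of the last below the highest 0 min sample. Its log2 fold change was 0.17 ± 0.14 (SE), and 0.03 ± 0.13 (SE) with the number detected. Polr1b, a subunit of RNA polymerase I, had 0.35 ± 0.11 (SE), and Nop14, of small ribosomal subunit assembly, 0.37 ± 0.12 (SE). Setd1b, a histone H3 lysine 4 methyltransferase, had 0.32 ± 0.16 (SE), Mnt, a repressor of the MYC/MAX network, 0.30 ± 0.18 (SE), and Tcf25, a nuclear protein, 0.28 ± 0.14 (SE). Of this group, 5 of 8 were called rising with the number detected, beside 54.2% of the tested members of M[8] and 28.9% of all tested transcripts.

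Of the 4 RNA-binding members, Zfp36l1 was called higher at 24 h in both models. Zfp36l1 and Zfp36l2 are related CCCH zinc finger proteins that promote the decay of AU-rich mRNA. Zfp36l1 had CPM of 65.4, 80.3 and 115 at 0 min, 55.9, 80.6 and 116 at 45 min and 88.8, 128 and 138 at 24 h, with a log2 fold change of 0.54 ± 0.14 (SE) and 0.47 ± 0.14 (SE) with the number detected. Zfp36l2 had CPM of 26.7, 32.5 and 44.2 at 0 min, 16.6, 28.7 and 40.6 at 45 min and 34.0, 46.4 and 71.1 at 24 h, with 0.53 ± 0.18 (SE) and 0.32 ± 0.16 (SE). The slope with the number detected was 0.04 per 1000 transcripts in Zfp36l1 and 0.15 in Zfp36l2, and their difference was not tested. Zfp36l1 was called in 20 of 24 fits that each left out 1 sample, and not without a filter or in the shared range. In both, some 24 h samples lay within the 0 min range.

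Zrsr1, a splicing factor related to U2AF35, had CPM of 14.9, 21.4 and 25.9 at 0 min, 13.5, 19.9 and 24.3 at 45 min and 19.9, 29.6 and 44.8 at 24 h, and a log2 fold change of 0.51 ± 0.17 (SE). Piwil2, a PIWI protein known from the germline, was low, with CPM of 0.499, 1.26 and 2.54 at 0 min, 0.224, 1.27 and 2.56 at 45 min and 1.46, 2.75 and 4.23 at 24 h. Its values overlapped in 3 samples at 0 min and 3 at 24 h, and the log2 fold change was 1.07 ± 0.34 (SE). Piwil2 was not called in the main fit. With time alone it was called in 10 of 15 alternative settings and in 5 of 24 fits that each left out 1 sample.

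The 7 members of metabolism and the endoplasmic reticulum had 4 called higher at 24 h, and 3 of these, Aox1, Slc40a1 and Cat, also with the number detected. Aox1, aldehyde oxidase, had CPM of 32.9, 40 and 44.5 at 0 min, 35.6, 42.5 and 60.4 at 45 min and 51.7, 75.4 and 110 at 24 h. Its 24 h samples lay above all of 0 min, and the log2 fold change was 0.92 ± 0.15 (SE), or 0.77 ± 0.13 (SE) with the number detected. Slc40a1, ferroportin, the iron exporter of cells, had CPM of 11.2, 17.9 and 23.4 at 0 min, 13.2, 17.8 and 29.1 at 45 min and 20.4, 34.9 and 45.5 at 24 h. Replicates 2 and 3 at 24 h overlapped 0 min. The difference was 0.82 ± 0.19 (SE), and 0.64 ± 0.18 (SE) with the number detected.

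Cat, catalase, which breaks down hydrogen peroxide, had CPM of 258, 298 and 335 at 0 min, 220, 339 and 362 at 45 min and 311, 444 and 603 at 24 h. Only replicate 4 at 24 h lay in the 0 min range, and at 45 min replicates 6, 7 and 8 lay below all 0 min samples. With time alone the log2 fold change was 0.64 ± 0.14 (SE), and 0.47 ± 0.12 (SE) with the number detected. Scd1, stearoyl-CoA desaturase, had 0.54 ± 0.17 (SE), and like Il4ra its highest 24 h value was in replicate 4 (38.9 CPM, against a 24 h median of 22.2).

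Herpud2, related to a stress protein of the endoplasmic reticulum, and Spcs2, a subunit of the signal peptidase, were with Snap29 the members least moved by the number detected. Herpud2 had CPM of 34.1, 41.8 and 57.2 at 0 min, 31.7, 45.1 and 50.7 at 45 min and 45.3, 56.8 and 69.1 at 24 h, with log2 fold changes of 0.39 ± 0.12 (SE) and, with the number detected, 0.37 ± 0.12 (SE). With time alone Herpud2 was called in 10 of 24 fits that each left out 1 sample, and not without a filter, with upper quartile scaling or in the shared range. Spcs2 had 29.2, 34.5 and 43.3 at 0 min, 27.3, 33.7 and 42.2 at 45 min and 37.4, 42.2 and 52.9 at 24 h, with 0.30 ± 0.11 (SE) and 0.27 ± 0.11 (SE). In both, the 24 h samples overlapped the upper 0 min samples. Pgrmc2, a heme-binding membrane protein, had CPM of 37.2, 45.2 and 61.2 at 0 min, 39.5, 46.8 and 53.3 at 45 min and 48.5, 56.5 and 59.8 at 24 h, with a log2 fold change of 0.20 ± 0.11 (SE) and all 24 h samples below the highest of 0 min.

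Of the 9 members with no assigned role, 8 could be tested and 2, Vwa3a and Cdr2l, were called higher at 24 h. Vwa3a had a log2 fold change of 1.06 ± 0.24 (SE), and 0.89 ± 0.24 (SE) with the number detected, and a second transcript of the gene that the study left in no module had 0.998 ± 0.346 (SE). Cdr2l had 0.51 ± 0.16 (SE). The M[8] transcript of Ahnak2 had 0.48 ± 0.35 (SE), and 0.04 ± 0.32 (SE) with the number detected, while the transcript of the same gene in M[7] had 0.96 ± 0.16 (SE), and 0.913 with the number detected. AK040602, Pqlc3, AK030646, C130074G19Rik and Tmem127 had between 0.23 and 1.24. BC051062, which was not tested, had 1 to 8 counts at 0 min, 0 to 13 at 45 min and 4 to 19 at 24 h.

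**Figure D5:**
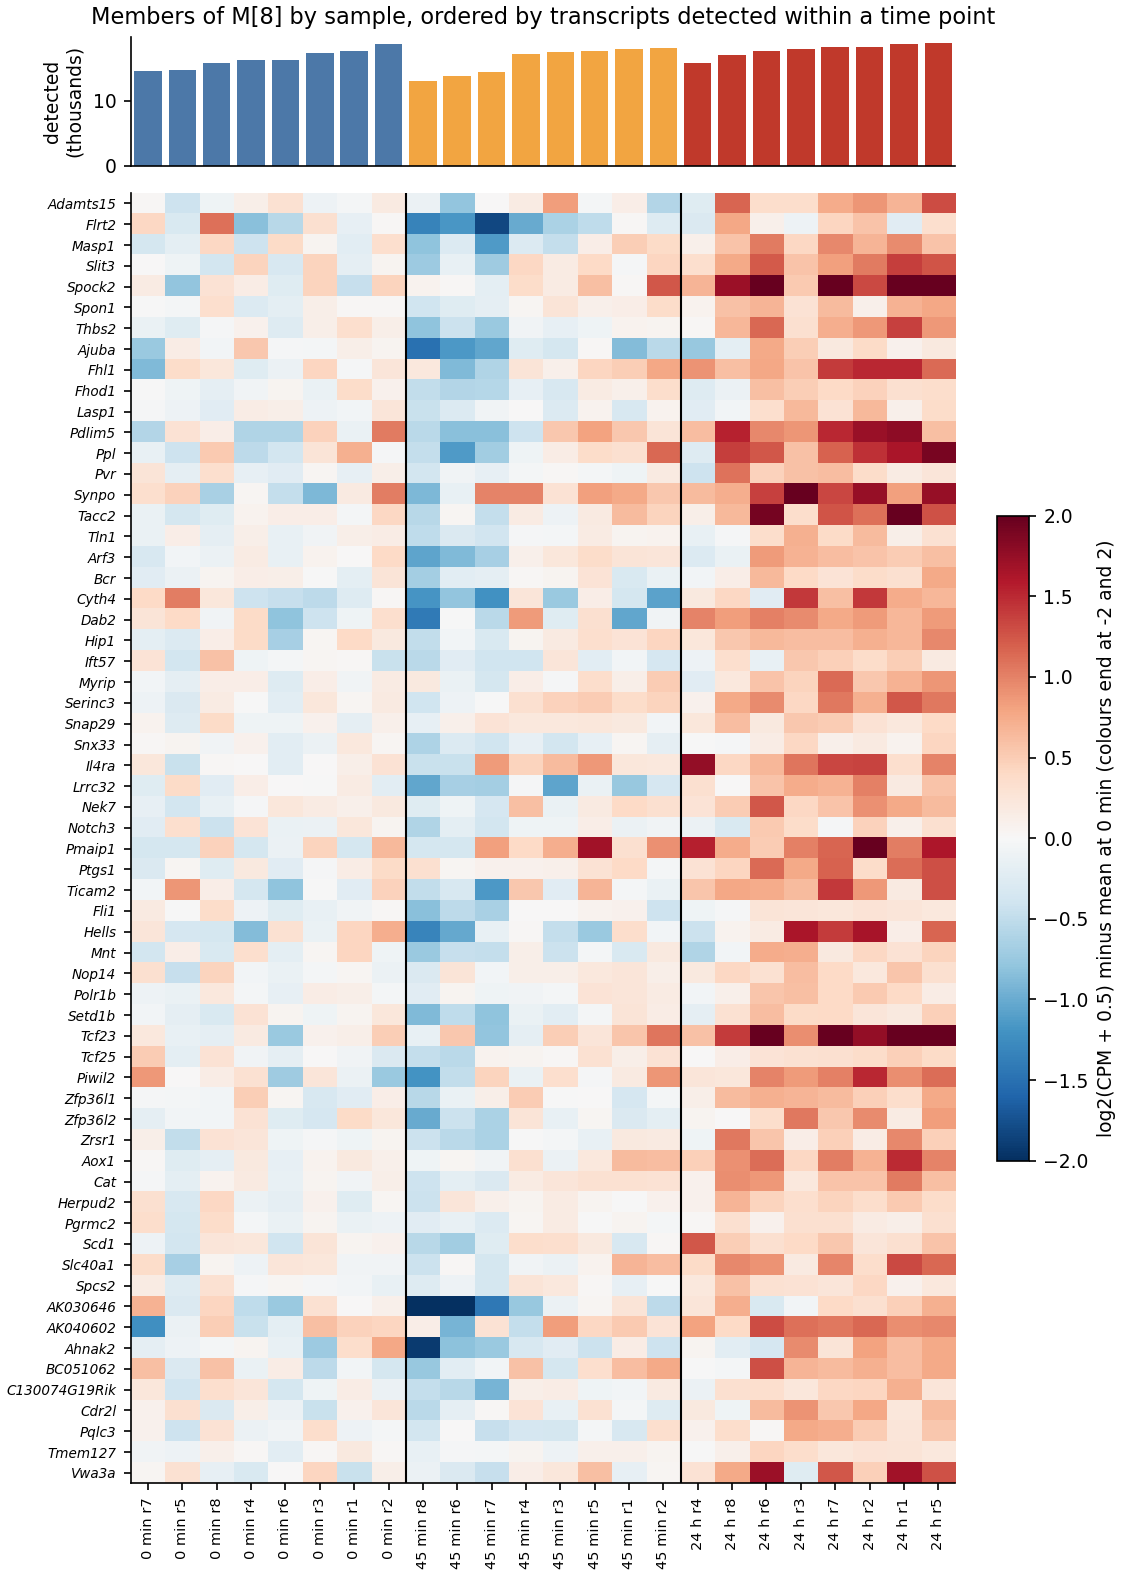
The lower panel shows log2(CPM + 0.5) minus the mean at 0 min for the 62 members (rows, grouped by role) in the 24 samples (columns), and the upper panel shows the number of transcripts detected, by which samples are ordered within each time point. Red fills most of the 24 h block except in its first column (replicate 4), and the first 3 columns of the 45 min block (replicates 8, 6 and 7) are mostly blue.

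Genes that work with these members were followed in lists drawn from the study's own list outside M[8], so nearly all were chosen for a change over these same samples. Of all tested transcripts, 4.44% were called higher and 3.24% lower at 24 h against 0 min, and 0.727% in either direction at 45 min. Of 8 genes of the Notch pathway, 0 were called higher and 1 lower at 24 h against 0 min, and 3 were called lower at 45 min. Nrarp, a feedback inhibitor of Notch, had a log2 fold change of -1.19 ± 0.17 (SE) at 45 min and -0.66 ± 0.16 (SE) at 24 h, beside -0.18 ± 0.14 (SE) and 0.17 ± 0.14 (SE) for Notch3. Of 6 tested genes of iron and heme handling, 4 were called higher at 24 h, among them Hmox1, heme oxygenase-1, with 2.93 ± 0.34 (SE) against 0.82 in Slc40a1. Hfe2, on average 91.9% of that list's summed CPM at 0 min, had -0.42 ± 0.16 (SE). The median sum was 404 CPM at 0 min and 421 at 24 h. Of 8 antioxidant genes, 5 were called higher, with Gclm, of glutathione synthesis, at 1.11 ± 0.13 (SE) beside Cat at 0.64. Prostanoid synthesis had 1 of 2 called higher, Ptgs2 at 1.78 ± 0.41 (SE), which was at 1.65 ± 0.41 (SE) at 45 min, where Ptgs1 was at 0.15 ± 0.16 (SE). Of 6 tested lipid synthesis genes 4 were called higher at 24 h. Dgat2, on average 72.3% of that list's summed CPM at 0 min, had -0.44 ± 0.15 (SE). The median sum was 553 CPM at 0 min and 590 at 24 h.

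Ribosome assembly genes, which go with Nop14 and Polr1b, were called higher in 5 of 11 at 24 h, against 4.44% of all tested transcripts. With the number detected 5 of 11 were called rising, against 28.9% of all tested transcripts. Their summed CPM had r = 0.81 with the number of transcripts detected and 0.874 with the level of M[8] over the 24 samples, and both differ between the time points.

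Of all tested transcripts 4.44% were called higher at 24 h. Leukocyte markers were called higher in 14 of 16 and lower in 0, and their summed CPM ran from 76 to 160 at 0 min and from 91.6 to 418 at 24 h. In 24 h replicate 4, lowest in M[8], they summed to 245 CPM beside a 24 h median of 222. Fibroblast and collagen markers were called higher in 5 and lower in 2 of 9 tested, with a summed CPM of 546 to 854 at 0 min and 527 to 1450 at 24 h. Endothelial markers were called higher in 4 and lower in 1 of 8 tested (161 to 217 and 187 to 249 CPM). Without Thbd their sums were 90.8 to 143 CPM at 0 min and 79.3 to 147 at 24 h, with medians of 108 and 94.2. The log2 fold change was above 0 in 4 of the 8, with 4.05 ± 0.46 (SE) for Selp and -0.885 ± 0.17 (SE) for Pcdh12. Cardiomyocyte markers were called lower in 6 of 13 and higher in 0, where 3.24% of all tested transcripts were called lower. Their sums were 18000 to 26600 CPM at 0 min and 7720 to 12800 at 24 h, of which Actc1, cardiac actin, made up 68.4% and 52.5% on average. Without Actc1 the sums were 5900 to 7660 and 3830 to 5850 CPM, and single markers ranged widely, with log2 fold changes of -1.38 ± 0.18 (SE) for Actc1 and -0.20 ± 0.11 (SE) for Actn2. Genes of mitochondrial energy metabolism were called lower in 5 of 12. No marker of these lists was at 0 in any time point. The log2 summed level of the lists was also set against the level of M[8], as a description over samples that share libraries and time points. Over the 24 samples r was -0.918 for cardiomyocyte markers, -0.886 for mitochondrial genes, 0.633 for fibroblast markers, 0.535 for leukocyte markers and 0.209 for endothelial markers (-0.432 without Thbd, their most abundant gene). Within the 8 samples at 24 h r was -0.595, -0.466, 0.149, 0.053 and -0.7 in the same order. The part of these cells in the M[8] difference was not tested.

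The transcripts of M[8] were of genes with long transcripts. In GENCODE M21 (GRCm38), the longest transcript had a median of 4575 bases over the 59 of 62 members matched by symbol, against 3011 over the other listed transcripts, 4119 in M[9], 3363 in M[7] and 2124 in M[6]. Its median GC content was 51% in M[8], 51% in the other listed transcripts and 46.2% in M[9]. Length and GC content were not put in a model, and their part in the relation with the number of transcripts detected was not tested.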

How the data were processed

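The authors deposited counts of reads per UCSC transcript for 24 left ventricles, 1 library per mouse. Per the study's methods and the submitters' processing notes, stranded 76-base single reads were trimmed with cutadapt 1.9.1, aligned to mm10 with TopHat2 2.1.0 and Bowtie2 2.2.9, and counted with HTSeq 0.6.0. The counting mode and annotation release are not given in the sources used here, so reads shared by overlapping transcripts may be split or lost. All columns were matched to samples (columns of no sample, 0). M[8] came from the study's module table, and members and gene lists were chosen with earlier results of these data known.

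In R 4.3.3, edgeR 4.0.16 was fitted to the counts of all 24 samples with TMM scaling and filterByExpr (minimum count 10, minimum total 15). The quasi-likelihood test was adjusted by Benjamini-Hochberg over all 8940 transcripts at 0.05, with time alone and with time and the number of transcripts having at least 1 count. Levels are CPM, with 0.5 added before log2. p-values measure the spread between mice. The script was tested on simulated data. DESeq2 1.42.0, limma 3.58.1 (voom), 1 surrogate variable (sva 3.50.0), other scalings, filters, thinning, a replicate block and left-out samples were alternatives. Promoters are RefSeq (GRCm38.p6), transcript lengths GENCODE M21.

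CPM per time point are given for the 2 largest and the 1 smallest log2 fold changes per role, the 3 members moved most and the 3 moved least by the number detected, the 2 with the highest mean CPM, Zfp36l1, Zfp36l2, Notch3, Slc40a1 and Cat. Arf3 and others outside this rule were named after their values were seen. The sample labels used here do not give the surgeon or library pool, so neither could be put in a model. Their part in the libraries that stood apart cannot be told.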

Additional observations from a re-analysis of the deposited data

Results flagged for a closer look

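The module level, the number of transcripts detected and the members given by sample were looked at in each time point. Members and module level were on the log2(CPM + 0.5) scale, and the number detected was not transformed. In 3 of 93 groups of 8 samples, 1 value lay far from the rest of its group, by a ratio of gap to range above 0.526. Chance alone marks about 1 in 20 such groups. Ajuba, the junction protein, had 1.66 CPM in 0 min replicate 7, where the next lowest sample had 2.97. Slc40a1, the iron exporter, had 11.2 CPM in 0 min replicate 5, where the next lowest had 16.8. Herpud2 had 31.7 CPM in 45 min replicate 8, the library with the fewest transcripts detected (12972), where the next lowest had 42.8. What set these values apart was not tested.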

How the results depend on the processing

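The median log2 fold change of the members at 24 h kept its direction under every alternative run (0.474 to 0.558, and 0.351 to 0.549 with the number detected), as it did with each sample left out (0.453 to 0.554, and 0.354 to 0.466). Counts of calls moved more. At an adjusted p under 0.01 they were 13 at 24 h against 0 min, 9 with the number detected, 17 for the slope and 12 against 45 min. DESeq2 called 39 members at 24 h against 0 min. Without a filter the slope gave 20 and 24 h against 45 min gave 22. With 1 surrogate variable, which had r = 0.836 with the number detected, 40 were called at 24 h and 1 at 45 min. The share of the 20 most abundant transcripts, with its sign turned, was also put in place of the number detected. With it 29 were called at 24 h and 0 were called rising for the slope. Members called falling were not counted there. With alternatives chosen after seeing the data, leaving out 45 min samples 6 to 8 gave 38 at 24 h, 6 for the slope and 11 against 45 min, and leaving out 24 h sample 4 as well gave 49, 0 and 19, while the slope from the 0 min and 24 h samples alone gave 1. With each sample left out, the count at 24 h was 16 (without 24 h replicate 5) to 33, with the number detected 13 to 24, the slope 18 to 28, 45 min 0 to 0, and 24 h against 45 min 27 (without 24 h replicate 5) to 51. Flrt2 turned to -0.00683 in the lowest of these fits. The cause of these shifts was not tested. Of 24 same-numbered pairs of samples, 13 correlated above 0.1 (median 0.12, from -0.541 to 0.583). No value for differently numbered pairs is given, so whether the replicate numbers pair the samples cannot be told. With the replicate block the counts were 24, 17, 26, 0 and 38, with medians of 0.509 and 0.363. Of the members given by sample, Snap29 and Herpud2 were then no longer called and Dab2 was newly called at 24 h against 0 min. Members with a mean under about 20 counts have wide errors.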
